A study of Mus musculus with 46 samples.

Results

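The 30 genes described here encode the machinery of mitochondrial fatty acid beta-oxidation and of ketone body metabolism, with the pathway's regulator Ppara and the kinase Pdk4. They were chosen by gene symbol for their function, and all 30 were found among the 55416 Ensembl genes of 4 count tables. Earlier results of these data were known at the choice, so counts of these genes beside all genes are a description, not a test. All 30 passed the filter on low counts in every comparison. By role, 6 serve fatty acid activation and carnitine transport, 7 are acyl-CoA dehydrogenases and 6 were grouped with later steps of the spiral. Hsdl2, a dehydrogenase-like gene, is among these last 6 and is assigned no step of the spiral here. Of the rest, 3 serve electron transfer, 3 unsaturated fatty acids and 3 ketone metabolism, and 2 are regulators.

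Beta-oxidation shortens fatty acids inside mitochondria. Long-chain acids are activated to acyl-CoA, exchanged onto carnitine, carried across the inner membrane, and then cut in a repeating spiral of dehydrogenation, hydration, dehydrogenation and thiolysis. In fasted liver much of the acetyl-CoA made this way becomes ketone bodies that are exported to other organs, and the nuclear receptor PPARA is known to switch on many of these genes during fasting.

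The series asks how PLVAP, a protein of the diaphragms of caveolae and fenestrae, bears on fatty acid use by the liver when it is deleted through Lrat-Cre, a driver active in hepatic stellate cells. RNA was sequenced from 46 snap-frozen livers of male mice. The Plvap mice were labelled Plvap Knockout or Plvap Control, of strain C57BL/6JBomTac, and the controls were littermates. For the diet experiments the labels print Plvaptm1.1Salm-Tg(Lrat-cre)1Rshw, on B6.126(Cg), for knockouts and controls alike, and for the chow experiments no alleles, so which alleles the controls carry is not known here. On chow there were 5 knockout and 6 control livers fasted for 12 h, and 4 knockout and 4 control livers that were refed for 2 h following 10 h without food. On western diet with fructose in the drinking water for 6 weeks there were 4 knockout and 5 control livers, and on high-fat diet with normal water for 6 weeks there were 5 of each, all fasted for 12 h. A separate pair of groups held 4 livers of whole-body Cav1 knockouts (STOCK Cav1tm1Mls/J) and 4 of C57BL/6N wild types, on chow with a 6 h fast, so that genotype and stock differ together. Age is not given in the sources used here. Replicates are labelled by letter, and nothing further says how the livers of a group were obtained, so p-values measure only the spread between these samples, which may be partly technical.

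Libraries held 6656342 to 23311539 counts, and the lowest count of any of the 30 genes in a library was 25, for Pdk4. Plvap stood at 20.0%, 17.8%, 18.9% and 25.3% of the control mean in chow-fasted, refed, western and high-fat knockouts, with exact two-sided permutation p of 0.00433, 0.0286, 0.0159 and 0.00794. Cav1 stood at 16.5% of the wild-type mean (exact permutation p = 0.0286). Over all genes, edgeR's quasi-likelihood test at an adjusted p of 0.05 called 145 higher and 144 lower of 12840 in chow-fasted knockouts, 0 and 3 of 13228 in refed knockouts, 1 and 1 of 13533 on western diet, 27 and 11 of 13533 on high-fat diet, and 333 and 274 of 12978 in Cav1 knockouts. The 12 hepatocyte markers were present in every library, and their summed level was higher in each knockout group than in its comparison group without overlap, much of it carried by Alb. Muscle markers summed to at most 0.903 CPM except in western knockout B (49.0 CPM), western control A stood apart with 102 CPM of lymphocyte markers, against 20.8 CPM in the lowest western control, and high-fat control A had 984 CPM of blood markers, against 381.9 CPM in the lowest high-fat control. Mitochondrially encoded genes held 0% of counts in all 8 refed libraries, against 3.35% to 6.85% in the others. In bulk tissue, fewer cells of a type and less RNA per cell cannot be told apart.

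Promoter sequence is shown because PPARA, which binds as a dimer with RXR to a direct repeat, is the known regulator of the pathway. RefSeq windows of 250 bases before to 50 bases after the start (build GRCm38.p6) were at hand for 26 of the 30 genes. The search used 2 copies of the motif AGGTCA with 1 base between, on both strands, with at most 2 mismatches over the 12 fixed letters. It matched 3 of the 26 genes (11.5%), Echs1, Etfa and Slc25a20, and 1190 of 27025 genes with a window (4.4%). In the 250 bases upstream of Echs1 (chr7:140116422-140116671, minus strand) and of Etfa (chr9:55512244-55512493, minus strand, match on the opposite strand), capitals mark the match. The match of Slc25a20 (chr9:108662142-108662154, plus strand) lies after its start and is printed alone. The upstream stretch of Hadhb (chr5:30155003-30155252, plus strand) is given beside them as that of a gene that fell in chow-fasted knockouts and has no match. Its start lies head to head with that of Hadha on the other strand. Of the 7 genes that fell there, 6 had a window, and 0 of these held a match. Sequence outside the windows was not searched, so sites elsewhere in these genes would not have been seen.
Echs1: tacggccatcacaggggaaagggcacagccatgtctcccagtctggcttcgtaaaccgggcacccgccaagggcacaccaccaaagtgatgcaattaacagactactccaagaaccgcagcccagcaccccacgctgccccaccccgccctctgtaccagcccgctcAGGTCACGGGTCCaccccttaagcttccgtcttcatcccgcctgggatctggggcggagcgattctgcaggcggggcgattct
Etfa: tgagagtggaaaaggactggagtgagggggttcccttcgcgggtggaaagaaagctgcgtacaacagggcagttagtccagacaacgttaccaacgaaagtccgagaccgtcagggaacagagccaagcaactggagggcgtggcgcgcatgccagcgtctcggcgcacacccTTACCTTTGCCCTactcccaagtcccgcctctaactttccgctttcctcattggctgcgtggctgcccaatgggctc
Slc25a20: AGGTGAAAGGTCG
Hadhb: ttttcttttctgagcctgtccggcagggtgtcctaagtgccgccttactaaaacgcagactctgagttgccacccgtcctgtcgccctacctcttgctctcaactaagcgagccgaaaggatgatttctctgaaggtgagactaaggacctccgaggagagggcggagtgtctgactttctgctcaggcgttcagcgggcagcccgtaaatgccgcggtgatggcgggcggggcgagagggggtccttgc

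Levels are given as CPM (each gene's counts scaled to a common library size) after TMM scaling over all libraries. Per kilobase of exon in chow-fasted controls, the thiolase Acaa2 had the highest mean level of the 30 genes (625.2 CPM per kb). It was followed by the electron carrier subunit Etfa (305), the ketone-pathway thiolase Acat1 (214), the long-chain dehydrogenase Acadl (179) and the acyl-CoA ligase Acsl1 (173). Cpt2 stood at 109 CPM per kb, Ppara at 16.1, Pdk4 at 6.39 and the dehydrogenase-like Acad10 at 2.5. The CPM of the 30 genes summed to a median of 0.892% of the common library size in chow-fasted knockouts and 1.13% in their controls. TMM factors ran from 0.867 to 1.173 over the libraries, so such sums are not shares of a library's counts. The medians were 0.745% in refed knockouts and 0.881% in refed controls, 1.09% and 1.21% on western diet (knockouts, controls), 1.11% and 1.09% on high-fat diet, and 0.773% in Cav1 knockouts and 0.85% in wild types.

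The first question was what the loss of Plvap did to these genes in chow-fed mice after a 12 h fast. Of the 30 genes, 7 fell in the knockouts and 0 rose, while 1.12% of all tested genes were called lower and 1.13% higher. They were 4 of the 6 genes of activation and carnitine transport (Cpt1a, Cpt2, Slc22a5, Acsl1), Hadhb of the spiral, Decr1 of the unsaturated route and the ketone body transporter Slc16a1. Of the 30 log2 fold changes, 28 lay below 0, with a median of -0.37 and a range of -0.81 to 0.17. Over all genes 51.0% lay below 0 and the median was -0.005. In 7 of the 30 genes every knockout library lay below every control, as in 1.5% of all genes. They were Acadl, Acadm, Slc16a1, Hsdl2, Decr1, Hadhb and Acat1.

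**Figure D1:**
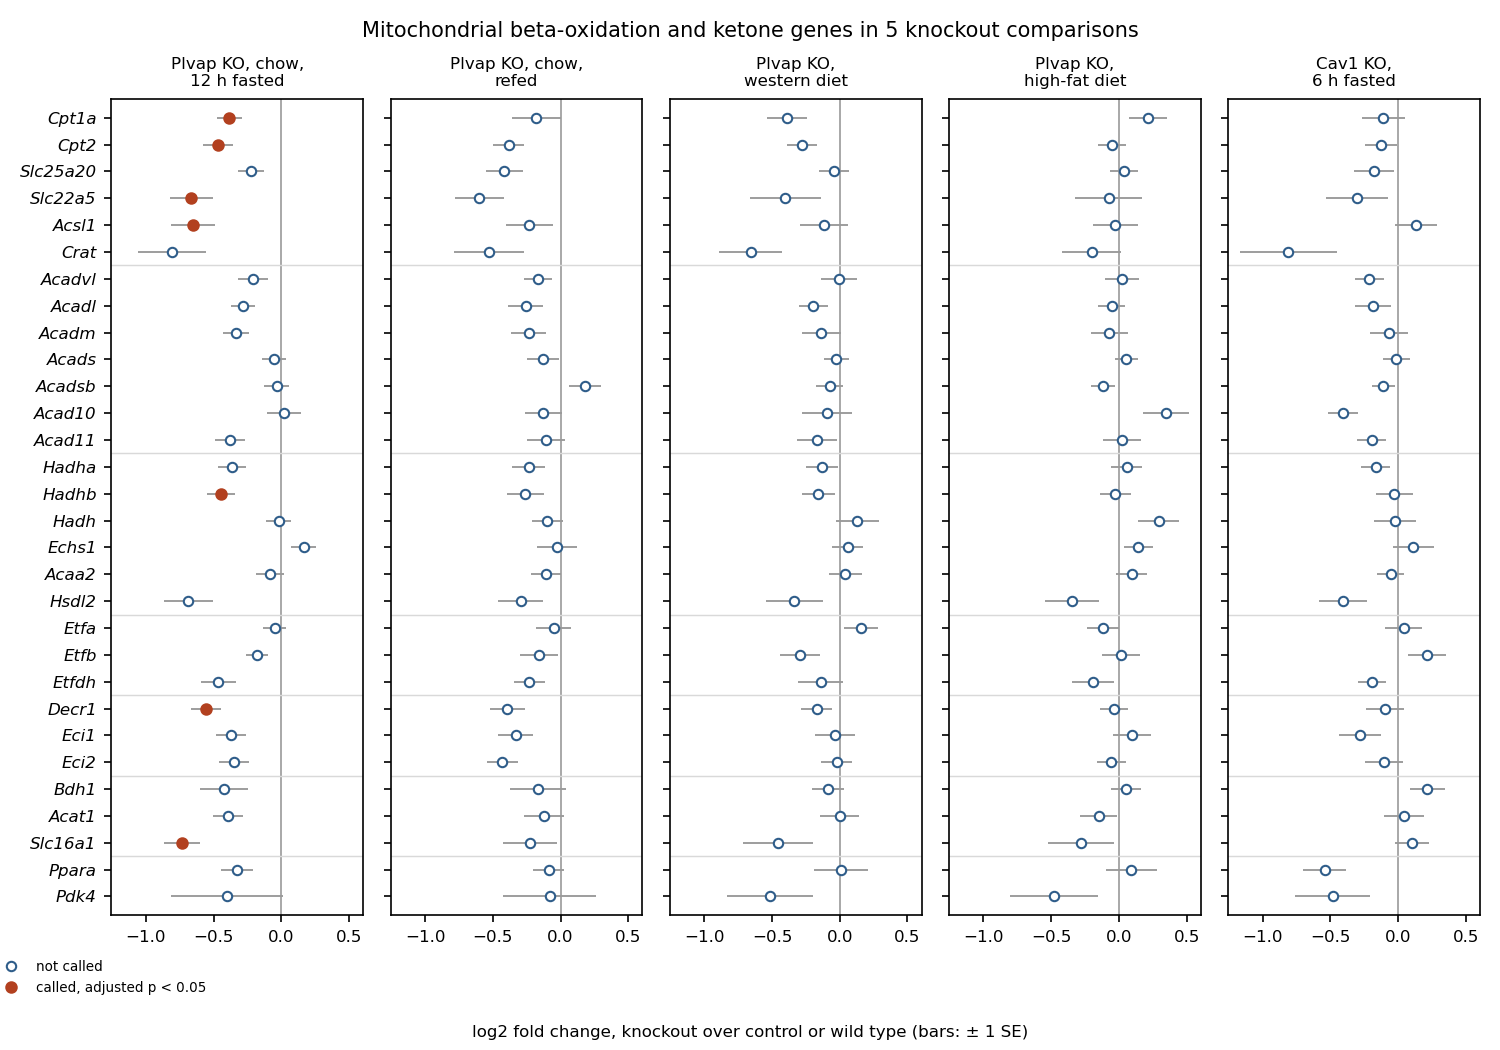
Log2 fold change of each of the 30 genes (rows, grouped by role) in 5 knockout comparisons (panels), knockout over control or wild type. Points are edgeR estimates, bars are 1 SE to each side, and filled points passed an adjusted p of 0.05. Filled points appear in the chow-fasted panel for 7 genes, and the high-fat panel straddles 0 with 16 genes below it.

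Among the transport genes, Cpt1a, the entry step on the outer mitochondrial membrane (chr19:3372334-3435733, GRCm39, as for the coordinates that follow) had 349, 414.7, 467, 380.8 and 388 CPM in knockouts A to E, against 466.4 CPM in the lowest, 525.5 in the median and 576 in the highest control. Only knockout C reached the control range, at its lower edge. The log2 fold change was -0.39 ± 0.09 (SE, edgeR adjusted p = 0.0393). Cpt2 (chr4:107761178-107780807), which returns the acyl group from carnitine to CoA inside the matrix, had 180, 155, 256, 178 and 182 CPM in knockouts, against 252, 259 and 274 CPM in the lowest, median and highest control. Again 4 knockouts lay below every control and knockout C lay within them (log2 fold change -0.47 ± 0.11, edgeR adjusted p = 0.0351).

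Slc22a5 (chr11:53755368-53782486), the plasma membrane carnitine carrier, had 37.6, 29.0, 58.4, 34.6 and 35.7 CPM in knockouts, against 49.6, 64.9 and 73.6 CPM in the lowest, median and highest control. Acsl1 (chr8:46924074-46989088), which activates long-chain acids, had 1131, 815, 1732, 1155 and 969 CPM in knockouts, against 1399, 1848 and 2117 CPM in the lowest, median and highest control. In both genes knockout C alone overlapped the controls. The log2 fold changes were -0.66 ± 0.16 for Slc22a5 (edgeR adjusted p = 0.0475) and -0.65 ± 0.16 for Acsl1 (edgeR adjusted p = 0.0466). Crat (chr2:30290483-30305825), carnitine acetyltransferase, had the lowest log2 fold change of the 30 genes, -0.81 ± 0.25, but did not pass the test (edgeR adjusted p = 0.128). It had 54.3, 28.6, 96.9, 52.7 and 60.1 CPM in knockouts, against 82.9, 103 and 119 CPM in the lowest, median and highest control. Slc25a20, the carnitine-acylcarnitine translocase of the inner membrane, differed by -0.22 ± 0.10 on the log2 scale (edgeR adjusted p = 0.239).

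**Figure D2:**
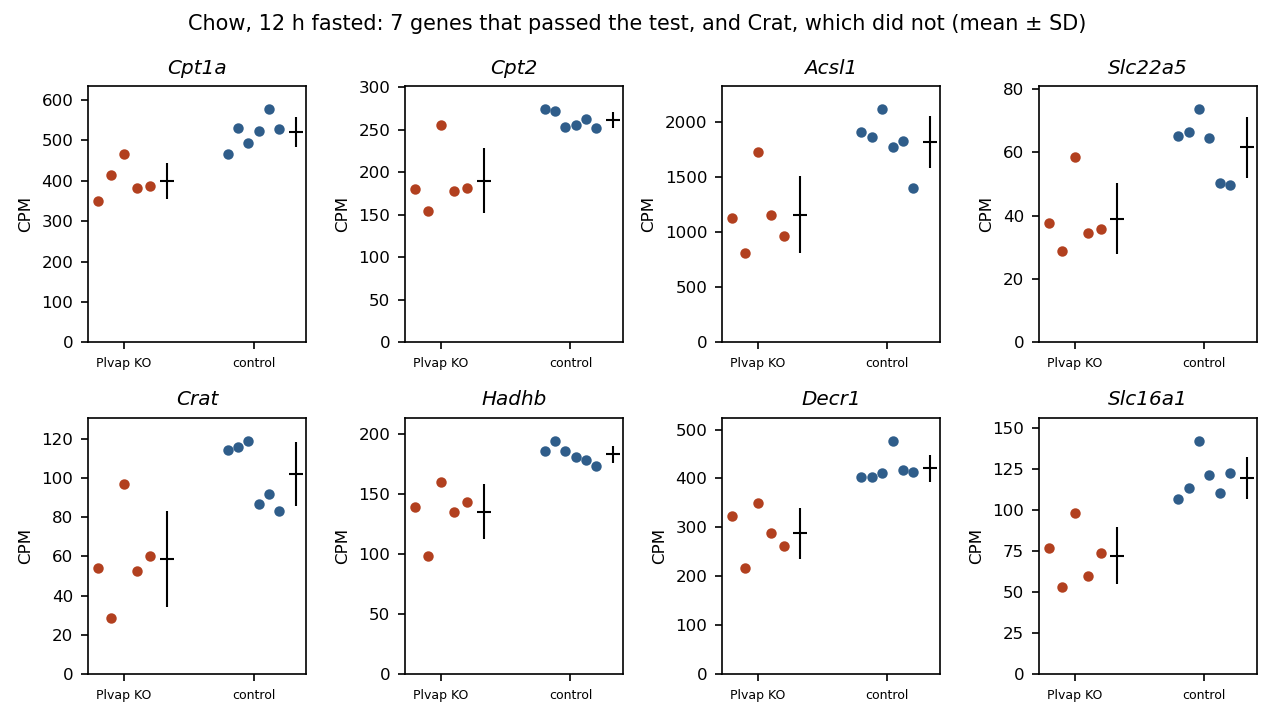
CPM per liver in the chow-fasted experiment for the 7 genes that passed the test and for Crat, which did not. Points are livers in letter order, 5 knockouts at the left and 6 controls at the right, with the group mean ± SD beside them. Knockout C, the third point, is the highest knockout in all 8 panels, and Hadhb, Decr1 and Slc16a1 have no overlap between groups.

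None of the 7 dehydrogenases passed the test. Their log2 fold changes had a median of -0.21. The very-long-chain, long-chain and medium-chain enzymes Acadvl, Acadl and Acadm stood at -0.21, -0.29 and -0.34. The short-chain and branched-chain enzymes Acads and Acadsb stood at -0.05 and -0.04, and Acad10 at 0.02. Acad11 had the lowest fold change of the 7, at -0.38 ± 0.11 (edgeR adjusted p = 0.0857), with a mean of 382.6 CPM in knockouts and 494.9 CPM in controls. It was called lower by DESeq2, without the filter and with the letter as a block. For Acadl and Acadm the groups did not overlap, at edgeR adjusted p of 0.102 and 0.0801.

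Within the spiral, Hadhb fell and its partner Hadha stood at -0.37 ± 0.11 (edgeR adjusted p = 0.0819). The 2 genes encode the subunits of the trifunctional protein, which performs the last steps on long chains. Hadhb (chr5:30360246-30389591) had 139, 98.1, 160, 135 and 144 CPM in knockouts, against 174, 183 and 194 CPM in the lowest, median and highest control (log2 fold change -0.44 ± 0.10, edgeR adjusted p = 0.036). All 5 knockouts lay below all 6 controls. Hsdl2, a short-chain dehydrogenase-like gene, had 138, 75.1, 179, 148 and 149 CPM in knockouts, against 181, 220 and 269 CPM in the lowest, median and highest control. The groups did not overlap, yet the gene missed the threshold (log2 fold change -0.69 ± 0.18, edgeR adjusted p = 0.069). The hydratase Echs1, the short-chain hydroxyacyl-CoA dehydrogenase Hadh and the thiolase Acaa2 stood at 0.16, -0.02 and -0.08 with adjusted p of 0.37 or more.

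Of the electron transfer genes, Etfdh, which passes electrons from the flavoprotein to ubiquinone, stood at -0.47 ± 0.13 (edgeR adjusted p = 0.0703). The flavoprotein subunits Etfa and Etfb stood at -0.05 and -0.18. Of the genes for unsaturated fatty acids, Decr1, the dienoyl-CoA reductase (chr4:15917240-15945507), had 322, 216, 350, 288 and 262 CPM in knockouts, against 402.7, 412.2 and 477 CPM in the lowest, median and highest control. Every knockout lay below every control (log2 fold change -0.55 ± 0.11, edgeR adjusted p = 0.019). The enoyl-CoA isomerases Eci1 and Eci2 stood at -0.37 and -0.35 (edgeR adjusted p = 0.0837 and 0.108).

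Slc16a1 (chr3:104545984-104565778), a monocarboxylate transporter that carries lactate and ketone bodies, had the smallest p of the 30 genes. It had 76.5, 52.9, 98.4, 59.7 and 73.6 CPM in knockouts, against 107, 118 and 142 CPM in the lowest, median and highest control. The groups did not overlap (log2 fold change -0.73 ± 0.13, edgeR adjusted p = 0.0121). The enzymes Bdh1, which interconverts acetoacetate and beta-hydroxybutyrate, and Acat1 stood at -0.42 ± 0.18 and -0.39 ± 0.11 (edgeR adjusted p = 0.234 and 0.0752). Ppara had 44.7, 40.8, 67.1, 51.5 and 43.6 CPM in knockouts, against 54.6, 60.98 and 71.8 CPM in the lowest, median and highest control. Knockout C lay among the controls and the other 4 lay below them, at a log2 fold change of -0.33 ± 0.12 (edgeR adjusted p = 0.159). Pdk4, which restrains pyruvate dehydrogenase when fat is burned, ranged from 9.15 to 27.9 CPM in knockouts and 11.9 to 36.6 CPM in controls (log2 fold change -0.40 ± 0.41, edgeR adjusted p = 0.674).

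Knockout B was the lowest knockout in 24 of the 30 genes and knockout C the highest in 22. Knockout B also had 1496 CPM of blood markers, where the lowest knockout had 485 and the controls had 425.4 to 604. Summed Kupffer cell markers ranged from 800 to 1132 CPM in knockouts and from 567 to 890 in controls with 0 of 10 called, and lymphocyte markers from 32.5 to 47.1 CPM and from 22.0 to 35.9 CPM with 1 of 6 tested called. Stellate markers overlapped, with medians of 525 CPM in knockouts and 515 CPM in controls. Hepatocyte markers summed to 112568 to 146723 CPM in knockouts and 73648 to 93701 CPM in controls. Alb alone made up much of this sum, with a median of 58533 CPM in knockouts and 31080 CPM in controls, and was the 1 marker of the 12 called. Endothelial markers, a list that holds Plvap itself, summed to a median of 264 CPM in knockouts and 289 CPM in controls. Plvap alone had a mean of 5.80 CPM in knockouts and 29.0 CPM in controls, so the deletion itself lowers the sum. Lyve1 among the endothelial markers rose (0.64 ± 0.15, edgeR adjusted p = 0.0347). Cholangiocyte markers had a median of 46.1 CPM in knockouts, with 0 of 4 tested called, and split the controls, with 48.7, 52.9 and 52.8 CPM in A to C and 100.5, 108.5 and 97.2 CPM in D to F. The same split of controls showed in Pdk4, with 21.0, 36.6 and 36.5 CPM in A to C and 11.9, 13.5 and 15.1 CPM in D to F. It showed in Crat too, with 114.5, 116 and 119 CPM in A to C and 86.9, 91.9 and 82.9 CPM in D to F. The part of these differences in the result was not tested.

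The number of genes called among the 30 depended on single libraries. It was 18 without knockout C, 5 or 6 without control D, E or F, 3 without control A, 2 without knockout A, B or D or control B or C, and 1 without knockout E. Genes called in all moved as well, from 289 in the full fit to 550 without knockout C and 90 without knockout E. Slc16a1 was called in all 11 fits that left out 1 library and Decr1 in 10 of them, while Cpt2 and Hadhb were called in 4, Slc22a5 and Cpt1a in 3 and Acsl1 in 2. DESeq2 called 16 of the 30 genes, and 704 genes in all. With a trend of fold change on exon length removed, 5 remained and Cpt1a and Acsl1 did not. The median of the 30 genes lay between -0.456 and -0.283 in all fits that left out 1 library.

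**Figure D3:**
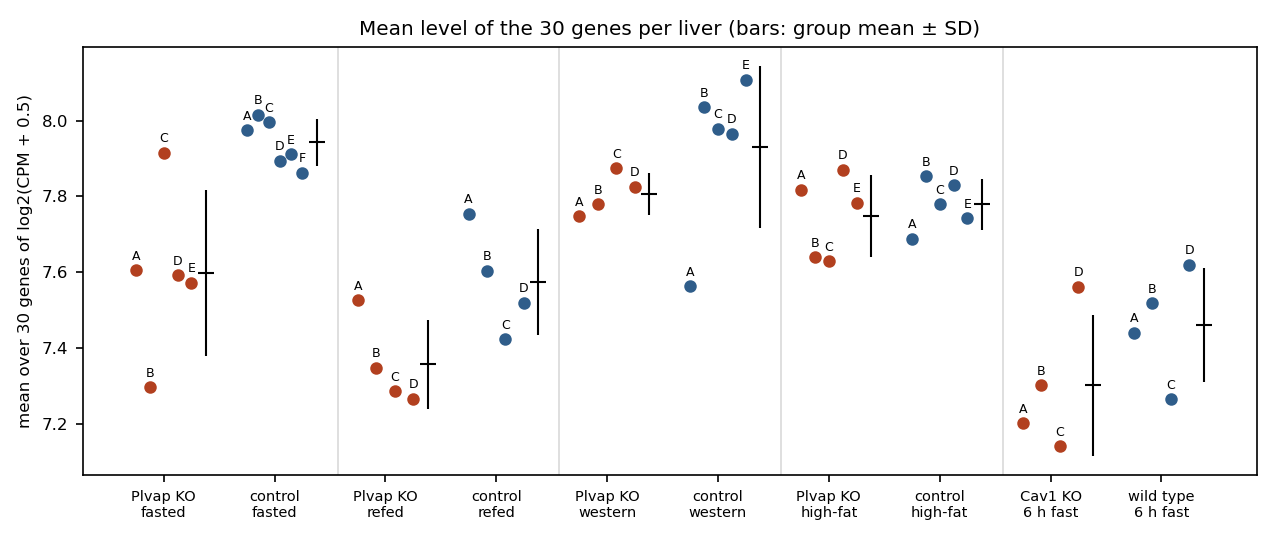
Mean over the 30 genes of log2(CPM + 0.5) in each liver, by group, with the group mean ± SD. Each knockout group stands left of its comparison group and letters name the livers. Chow-fasted knockouts B (7.298) and C (7.915) lie below and above knockouts A, D and E (7.573 to 7.606). Western control A lies far below its group, and in the refed groups 3 of 4 knockouts lie below all 4 controls.

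The next question was how these genes stood after 2 h of feeding. Here 0 of the 30 genes passed the test by edgeR or by DESeq2, and 0.0227% of all genes were called lower by edgeR. At an unadjusted edgeR p under 0.05 there were 6 of the 30, and 1024 of all 13228 genes tested. The log2 fold changes of 29 genes lay below 0 with a median of -0.20, where 48.9% of all genes lay below 0. In 6 genes (Eci2, Cpt2, Slc22a5, Slc25a20, Decr1, Eci1) every knockout lay below every control, as in 2.71% of all genes. Eci2 had 174, 159, 162 and 158 CPM in knockouts A to D, against 247, 240, 208 and 190 CPM in controls A to D (log2 fold change -0.43 ± 0.12, edgeR adjusted p = 0.43). Cpt2 had 165, 167, 144 and 165 CPM in knockouts, against 248, 205, 184 and 201 CPM in controls (-0.38 ± 0.12, edgeR adjusted p = 0.489). Slc22a5 had 21.2, 20.9, 16.2 and 21.5 CPM in knockouts, against 41.6, 31.5, 23.3 and 24.8 CPM in controls (-0.60 ± 0.18, edgeR adjusted p = 0.489).

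Refed knockout A was the highest knockout in 19 genes and refed control A the highest control in 20, so the same letter led in both groups. Same-letter refed livers deviated together, and a fit with the letter as a block called 0 of the 30 genes as well, with 30 genes called in all. Cpt1a and Ppara stood at -0.18 ± 0.18 and -0.09 ± 0.12 (edgeR adjusted p = 0.808 and 0.857). The difference between the effect in refed and in chow-fasted livers was tested directly. It called 0 of the 30 genes by edgeR and by DESeq2, and 0.0% of all genes by edgeR. This difference had an unadjusted edgeR p under 0.05 in 0 of the 30, and in 1192 of all 14234 genes tested. Its median was 0.12 over the 30 genes.

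On western diet 0 of the 30 genes passed the test by edgeR or DESeq2, and 0.00739% of all genes were called lower by edgeR. At an unadjusted edgeR p under 0.05 there were 3 of the 30, and 1325 of all 13533 genes tested. Of the log2 fold changes 25 lay below 0, with a median of -0.13, and 53.8% of all genes lay below 0. Crat had 61.1, 49.9, 67.1 and 50.3 CPM in knockouts, against 80.5, 87.6, 90.8, 58.2 and 131 CPM in controls (-0.66 ± 0.23, edgeR adjusted p = 0.401). Cpt1a had 514, 379.4, 398 and 439 CPM in knockouts, against 582, 497, 501, 534 and 707 CPM in controls (-0.39 ± 0.15, edgeR adjusted p = 0.416). Cpt2 had 233, 211, 243 and 237 CPM in knockouts, against 215, 288, 292, 287 and 313 CPM in controls (-0.28 ± 0.11, edgeR adjusted p = 0.436). For Crat control D lay among the knockouts, and for Cpt1a controls B and C lay below knockout A. For Cpt2 control A lay among the knockouts and the other 4 controls lay above them.

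Western control A was the lowest control in 22 of the 30 genes. Without it and the western knockout with muscle markers, the median was -0.21 and 0 genes were called. Ppara stood at 0.01 ± 0.20.

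On high-fat diet the 30 genes lay on both sides of 0, with 16 log2 fold changes below it, a median of -0.03 and 0 genes called by edgeR or DESeq2, 0 of them at an unadjusted p under 0.05. Of all genes 0.0813% were called lower, and 1873 of 13533 had an unadjusted edgeR p under 0.05. The 2 smallest p belonged to genes whose fold change lay above 0. Acad10 had 25.7, 21.1, 18.6, 23.7 and 33.1 CPM in knockouts, against 20.2, 17.2, 21.3, 19.6 and 18.2 CPM in controls (0.35 ± 0.17, edgeR adjusted p = 0.378). Hadh had 488, 389, 498, 420 and 638 CPM in knockouts, against 361, 355, 348, 432.2 and 490 CPM in controls (0.30 ± 0.15, edgeR adjusted p = 0.392).

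Hsdl2 had 146, 141, 105, 185 and 106 CPM in high-fat knockouts, against 136, 204, 167, 193 and 171 CPM in controls (-0.35 ± 0.20, edgeR adjusted p = 0.457). The groups overlapped in all 3 of these genes. Cpt1a stood at 0.21 ± 0.14 (edgeR adjusted p = 0.509) and Ppara at 0.09 ± 0.19. High-fat control A was the lowest control in 17 of the 30 genes. Without it the median was -0.048 and 0 of the 30 genes were called, with 61 genes called in all.

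Whether the effect of the knockout differed between diets was tested as an interaction. For high-fat diet minus chow-fasted livers, 0 of the 30 genes passed by edgeR or DESeq2, with 0.0% of all genes called by edgeR. An unadjusted edgeR p under 0.05 was found in 9 of the 30, and in 1164 of all 14234 genes tested. The median of these differences was 0.32 over the 30 genes and 0.01 over all genes. Decr1 differed by 0.51 ± 0.15 (edgeR adjusted p = 0.326) and Cpt1a by 0.59 ± 0.19 (edgeR adjusted p = 0.363). For western diet minus chow-fasted livers 0 of the 30 genes passed, 4 had an unadjusted edgeR p under 0.05 and 0.0% of all genes were called. Of all 14234 genes tested, 437 had such an unadjusted p. For western minus high-fat diet, 1546 of all 13533 genes tested had an unadjusted edgeR p under 0.05, and 0.0% were called by edgeR. Of the 30 genes 0 passed by edgeR or DESeq2, and 1 had an unadjusted edgeR p under 0.05. That gene was Cpt1a, whose effect was lower by 0.60 ± 0.20 on western diet (edgeR adjusted p = 0.297).

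The effect of the knockout was then averaged over the 4 experiments in a joint fit of all 38 livers of the Plvap line. Of the 30 genes 10 fell and 0 rose, where 2.45% of all genes were called lower. Of the log2 values 27 lay below 0, with a median of -0.17, and 51.3% of all genes lay below 0. Cpt2 had the smallest p, at -0.29 ± 0.05 (edgeR adjusted p = 0.000753), followed by Decr1 at -0.29 ± 0.06 (edgeR adjusted p = 0.00145). Crat had the largest fall among the called genes, at -0.55 ± 0.13 (edgeR adjusted p = 0.00887). The others were Hsdl2 (-0.41), Acadl (-0.19), Eci2 (-0.21), Slc16a1 (-0.42), Slc22a5 (-0.43), Hadhb (-0.22) and Etfdh (-0.26), with edgeR adjusted p of 0.011 to 0.0328. Cpt1a stood at -0.18 ± 0.07 (edgeR adjusted p = 0.136) and Ppara at -0.08 ± 0.08 (edgeR adjusted p = 0.689).

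Among the 30 genes, 14 lay below 0 in each of the 4 experiments and 0 lay above it in each. The same count was not made over all genes, so these numbers have no background beside them. Without western control A the count of calls among the 30 in the joint fit was 16, and without refed control A it was 8. Genes called in all were 794 in the full fit and 655 to 984 in fits that left out 1 library. Of the 10 genes, 8 were called in all 38 fits that left out 1 library. Hadhb lost its call in 1 of them (without refed control A) and Etfdh in 10. Without the filter on low counts 7 of the 10 were called, and Acadl, Slc16a1 and Slc22a5 were not (edgeR adjusted p = 0.0846, 0.0707 and 0.0658).

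Some markers of other cell types were called in the same joint fit. Of 5 adipose markers tested, 2 fell, Plin1 (-4.01 ± 1.15, edgeR adjusted p = 0.0336) and Adipoq (-2.59 ± 0.77, edgeR adjusted p = 0.0402). The summed adipose markers of western control A (38.4 CPM) and high-fat control A (35.6 CPM) were the highest of all livers. The endothelial marker Lyve1 (0.62) and the lymphocyte marker Cd79a (0.83) rose, as did 4 of the 12 hepatocyte markers, Alb, Tf, Apoa1 and Ttr. Their part in the result was not tested.

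**Figure D4:**
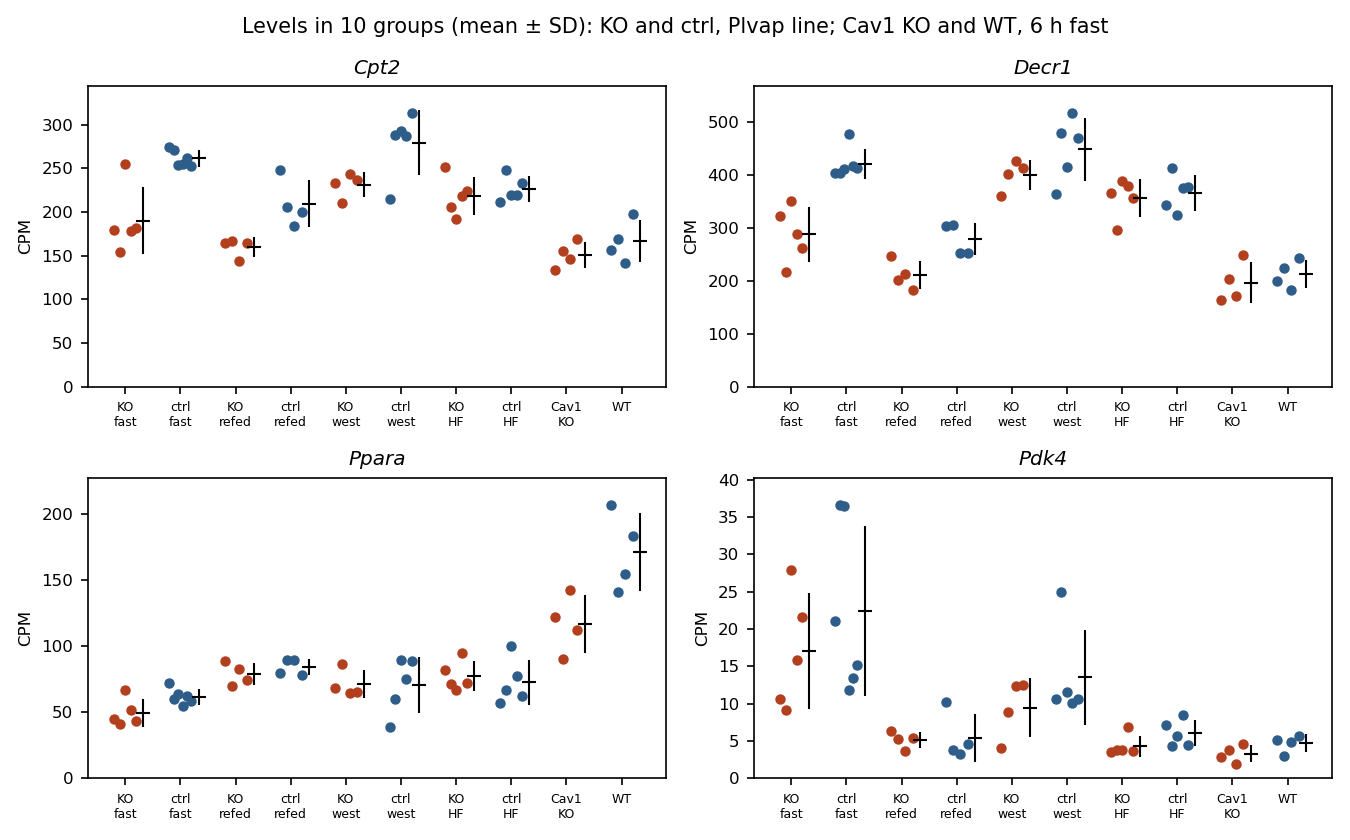
CPM per liver of Cpt2, Decr1, Ppara and Pdk4 in the 10 groups, with group mean ± SD, each knockout group left of its comparison group. Cpt2 and Decr1 separate knockouts from controls in the chow-fasted and refed groups except for chow-fasted knockout C in Cpt2, Ppara is highest in the Cav1 wild types, and Pdk4 has its highest mean in chow-fasted controls.

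Western diet was also compared with high-fat diet within each genotype. In knockouts, Pdk4 had 4.05, 8.84, 12.3 and 12.5 CPM on western diet, against 3.5, 3.76, 3.76, 6.81 and 3.67 CPM on high-fat diet. Western knockout A lay within the high-fat range and the other 3 lay above it. Pdk4 was the 1 gene of the 30 called (log2 fold change 1.15 ± 0.33, edgeR adjusted p = 0.0373), where 4.43% of all genes were called higher. Its call was lost without western knockout B, C or D, or high-fat knockout A, B, C or E, and 2 genes were called without western control A.

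In controls, Pdk4 had 10.6, 24.9, 11.5, 10.0 and 10.6 CPM on western diet, against 7.12, 4.39, 5.68, 8.44 and 4.51 CPM on high-fat diet. All western controls lay above all high-fat controls, at a log2 fold change of 1.18 ± 0.31 (edgeR adjusted p = 0.0506). In controls 0 of the 30 genes passed by edgeR, where 2.09% of all genes were called in either direction. DESeq2 called 2 of the 30, and 602 genes in all. At an unadjusted edgeR p under 0.05 there were 6 of the 30, and 2050 of all 13533 genes tested. The next smallest p in controls was that of Acadl, at 0.34 ± 0.10 (edgeR adjusted p = 0.0729). In controls, 2 of the 30 genes were called without western control A, and 1 without western knockout A or high-fat knockout D, which share the fit.

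In the Cav1 knockouts 0 of the 30 genes passed by edgeR, where 2.11% of all genes were called lower. DESeq2 called 2 of the 30 (Acad10 and Ppara), and 940 genes in all. At an unadjusted edgeR p under 0.05 there were 3 of the 30, and 2415 of all 12978 genes tested. Of the log2 fold changes 23 lay below 0, with a median of -0.11, and 46.1% of all genes lay below 0. Acad10 had 25.1, 21.2, 21.1 and 24.8 CPM in knockouts, against 30.3, 29.3, 27.8 and 35.9 CPM in wild types (-0.40 ± 0.11, edgeR adjusted p = 0.0682). It was the 1 gene of the 30 whose groups did not overlap, as in 7.0% of all genes. Ppara had 122, 90.0, 143 and 112 CPM in knockouts, against 207, 141, 155 and 184 CPM in wild types (-0.54 ± 0.16, edgeR adjusted p = 0.0969). Only knockout C reached the wild-type range. Without knockout C, 1 of the 30 genes was called.

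Hsdl2 had 57.5, 55.5, 56.1 and 85.6 CPM in Cav1 knockouts, against 86.6, 96.4, 61.4 and 96.3 CPM in wild types (-0.41 ± 0.18, edgeR adjusted p = 0.254). Knockout D alone lay among the wild types. The ketone genes lay above 0, with Bdh1 at 0.22, Slc16a1 at 0.10 and Acat1 at 0.04. Cpt1a stood at -0.11 ± 0.16 (edgeR adjusted p = 0.738). Hepatocyte markers summed to 109072 to 140203 CPM in Cav1 knockouts and 87360 to 99987 CPM in wild types, with 4 of 12 called higher and Alb alone at medians of 71303 CPM in knockouts and 51036 CPM in wild types, and their part in these values was not tested.

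Controls of different feeding states came from different tables, so table and condition cannot be told apart. The refed table, unlike the chow-fasted one, holds 0 counts of mitochondrially encoded genes, which bears on the library totals as well. Refed controls against chow-fasted controls gave 17 of the 30 genes lower and 2 higher (Acad10 and Ppara), where 22.7% of all genes were called lower and 24.1% higher. Pdk4 had 10.2, 3.77, 3.22 and 4.58 CPM in refed controls, against 11.9, 18.1 and 36.6 CPM in the lowest, median and highest chow-fasted control. No refed control reached the fasted range (log2 fold change -2.03 ± 0.39, edgeR adjusted p = 8.19e-05). The smallest p was that of Decr1, which had 304, 306, 252 and 253 CPM in refed controls, against 402.7, 412.2 and 477 CPM in the lowest, median and highest chow-fasted control (-0.58 ± 0.11, edgeR adjusted p = 7.07e-05). Without refed control C, 11 of the 30 genes were called in place of 19. Genes called in all were 6670 in the full fit and 5905 to 6874 in fits that left out 1 library.

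High-fat controls against chow-fasted controls gave 2 of the 30 genes lower, Pdk4 (-1.92 ± 0.37, edgeR adjusted p = 0.00137) and Slc16a1 (-0.81 ± 0.21, edgeR adjusted p = 0.0135), where 4.25% of all genes were called lower. The call of 1 of the 2 was lost without high-fat control E. Western controls against chow-fasted controls gave 0 by edgeR and DESeq2, and 1.81% of all genes were called in either direction by edgeR. At an unadjusted edgeR p under 0.05 there were 3 of the 30, and 2091 of all 14234 genes tested.

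Other genes of fatty acid and ketone metabolism were listed by function, 45 in all, of which 44 matched a symbol and 39 were tested in the chow-fasted experiment. Of these 1 rose, Echdc3 (0.40 ± 0.09, edgeR adjusted p = 0.0347), and 1 fell, the acetyl-CoA carboxylase Acacb, whose product inhibits Cpt1a (-0.74 ± 0.17, edgeR adjusted p = 0.0355). Of all genes 1.13% were called higher and 1.12% lower there. The median of the list was -0.005, equal to that of all genes. In refed, western and high-fat knockouts edgeR called 0 of 39, 0 of 41 and 0 of 41, and DESeq2 called 1, 0 and 1. At an unadjusted edgeR p under 0.05 there were 8, 1 and 4. Over all genes tested, 1024 of 13228, 1325 of 13533 and 1873 of 13533 had such a p, and DESeq2 called 66, 24 and 246. In the average over the 4 Plvap experiments 2 of 41 rose, Bdh2 (0.61, edgeR adjusted p = 0.00887) and Echdc3 (0.27, edgeR adjusted p = 0.0317). Of all genes 3.13% were called higher in that average. In Cav1 knockouts 1 rose, the ligase Acsl4 (0.57 ± 0.14, edgeR adjusted p = 0.0499), where 2.57% of all genes were called higher. There 3 fell, Ivd (-0.42), Acsf2 (-0.55) and Acad8 (-0.40), with edgeR adjusted p of 0.0116, 0.0176 and 0.0278. Of all genes 2.11% were called lower there.

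A further list held 34 known PPARA target genes outside mitochondrial beta-oxidation. In chow-fasted knockouts 7 fell and 1 rose, with a median of -0.48, where 1.12% of all genes were called lower and 1.13% higher. Cidec, a lipid droplet protein (-1.42 ± 0.20, edgeR adjusted p = 0.00223), the peroxisomal multifunctional enzyme Hsd17b4 (-0.48 ± 0.09, edgeR adjusted p = 0.00952), the omega-hydroxylase Cyp4a14 (-1.31 ± 0.22, edgeR adjusted p = 0.0102) and the thioesterase Acot2 (-1.33 ± 0.24, edgeR adjusted p = 0.0126) had the smallest p among those that fell. The peroxisomal transporter Abcd2 rose (1.38 ± 0.16, edgeR adjusted p = 0.000749). In the average over the 4 Plvap experiments 11 of the 34 fell and 1 rose, with a median of -0.32. Of all genes 2.45% were called lower and 3.13% higher in that average. In refed, western, high-fat and Cav1 knockouts 0 of the 34 passed by edgeR, with medians of -0.36, -0.40, -0.22 and -0.43. At an unadjusted edgeR p under 0.05 there were 16, 8, 3 and 9 in that order of groups, and DESeq2 called 4, 1, 0 and 3. Over all genes tested, 1024 of 13228, 1325 of 13533, 1873 of 13533 and 2415 of 12978 had such a p. DESeq2 called 66, 24, 246 and 940 genes in all.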

How the data were processed

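Liver RNA of 46 mice was prepared with a NEBNext Ultra kit, per the labels' protocols. The submitters' processing notes name STAR 2.7.8a, GRCm39, featureCounts 2.0, FastQC 0.11.9 and MultiQC 1.10.1. The annotation release and counting strand are not given in the sources used here. Reads of Acadvl and its antisense neighbour Dvl2 in the 42.9% of Acadvl's exon bases they share (medians 261 and 4.28 CPM) therefore cannot be told apart. Etfb shares 53.0% of its exon bases with Gm45233 on the same strand (medians 131 and 0.0 CPM), where strand would not separate the reads. The deposited tables hold raw counts per gene and, as another quantity, the exon length in bases, per the file headers. Genes without a symbol hold 0.764% of counts.

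Counts were tested with edgeR 4.0.16 in R 4.3.3 (TMM scaling, filterByExpr with minimum count 10 and minimum total 15, robust quasi-likelihood F-test, Benjamini-Hochberg adjustment over all genes, threshold 0.05). SE is the log2 fold change divided by the square root of F. Chow-fasted, refed and Cav1 effects were fitted on their own tables, diets on the diet table, and joint comparisons on the 8 Plvap groups. The procedure was checked on simulated counts. Alternatives were DESeq2 1.42.0, its size factors, no filter, a filter at 1 CPM, the replicate letter as a block, removal of a length trend (lowess span 0.3) and leaving out each library. For the refed groups, same-letter livers deviated together (r 0.249, 0.207, 0.231 and 0.216), each highest with its own letter; this pairing comes from the data. PCR reads are not independent molecules, so depth covers counting error only.

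The 30 genes and all lists were chosen with earlier results of these data known. The naming rule gave every gene called in a knockout comparison, or the 3 with the smallest p where fewer were called, with Cpt1a and Ppara always; other names were chosen after their values were seen. Fasting times follow the sample characteristics, since the free-text protocol gives 12 h for the refed and Cav1 groups too. Of 85 pairs of libraries within groups, 0 were identical.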

Additional observations from a re-analysis of the deposited data

Results flagged for a closer look

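In groups of 4 to 6 livers, 1 value was held to stand apart where its gap to the nearest liver was large against the whole range of its group. This was tested in 140 combinations of a gene, or the mean of the 30 genes, and a group, of which 9 passed, and chance gives about 1 in 20. Hsdl2 in Cav1 knockout D (85.6 CPM) lay above the other 3 knockouts with a gap of 0.936 of the range. Decr1 in chow-fasted control D (477 CPM) lay above the other controls with a gap of 0.807. The mean of the 30 genes in western control A lay below the other western controls with a gap of 0.737. In the same liver Cpt2 (215 CPM) had a gap of 0.731 and Eci2 (226 CPM) a gap of 0.757, both below the other controls. Cpt2 in chow-fasted knockout C (256 CPM) lay above the other knockouts with a gap of 0.732. Slc22a5 in high-fat knockout D (67.4 CPM) lay above its group with a gap of 0.756. In refed knockout C, Cpt2 (144 CPM) and Slc22a5 (16.2 CPM) lay below the other knockouts with gaps of 0.92 and 0.902.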

How the results depend on the processing

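Calls among the 30 genes moved more with the settings than the direction of their median, and the causes were not tested. With DESeq2 the genes of the 30 called were 16 in chow-fasted knockouts, 2 for western against high-fat diet in knockouts, 2 for the same in controls and 2 in Cav1 knockouts. Genes called in all were then 704 (chow-fasted), 66 (refed), 24 (western), 246 (high-fat), 602 (diets in controls), 57 (western minus high-fat effect), 940 (Cav1), 9, 3 and 14 (refed, western and high-fat effect minus chow-fasted) and 245 higher and 168 lower (western against chow-fasted controls). With DESeq2 size factors, and with the length trend removed, 1 of the 30 was called for the diets in controls.

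Without the filter, genes of the 30 called were 16 (chow-fasted), 1 (refed, Slc22a5), 0 (diets in knockouts), 3 (Cav1), 1 (high-fat against chow-fasted controls) and 7 in the average over experiments. Genes called in all were 861 (chow-fasted), 131 (refed), 10 (western), 99 (high-fat), 10 (western minus high-fat effect), 1279 (Cav1), 4 (refed minus chow-fasted effect) and 731 (high-fat against chow-fasted controls).

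With the replicate block, genes of the 30 called were 13 (chow-fasted), 0 (diets in knockouts), 2 (Cav1), 10 (refed against chow-fasted controls) and 0 (high-fat against chow-fasted controls). Genes called in all under the block were 713 (chow-fasted), 30 (refed), 1 (western), 523 (diets in knockouts), 5 and 2 (refed and high-fat minus chow-fasted effect), 2760 (refed against chow-fasted controls), 2 higher and 0 lower (western against chow-fasted controls) and 20 (high-fat against chow-fasted controls). Cpt1a in refed against chow-fasted controls turned to 0.044 under the block. Outside the refed experiment the correlations of same-letter livers ran from -0.211 to 0.275. Chow-fasted knockouts C and D and Cav1 knockouts B and D were highest with their own letter, and the other letters were not. Whether letters mark pairs there is not known. With only the compared groups, 1 gene was called on western diet.

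A first and a further set of libraries were left out after the data were seen. Chow-fasted knockout C in the further set was chosen on the mean of the 30 genes itself. Chow-fasted knockout B, at the low end of the same group, was kept. Without western control A and western knockout B, the diets in knockouts gave 0 of the 30 called and a median that turned to 0.028, the diets in controls gave 2, high-fat knockouts 122 genes in all, and western against chow-fasted controls 98 higher. Without these and chow-fasted knockout C, 18 of the 30 were called in the average over experiments, and the refed and high-fat minus chow-fasted effects gave 3 and 18 genes, and western against chow-fasted controls 100 higher.

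Leaving out 1 library at a time gave 1 to 18 of the 30 in chow-fasted knockouts, 0 to 2 for the diets in knockouts (with the median from -0.058 to 0.009), 0 to 2 for the diets in controls, 0 to 1 in Cav1 knockouts, 8 to 16 in the average, 11 to 20 in refed and 1 to 2 in high-fat against chow-fasted controls. Genes called in all ran from 90 to 550 (chow-fasted), 0 to 4 (refed), 1 to 5 (western), 4 to 126 (high-fat), 367 to 1715 (diets in knockouts), 132 to 335 (diets in controls), 0 to 1 (western minus high-fat effect), 330 to 671 (Cav1), 0 to 17, 0 to 1 and 0 to 12 (refed, western and high-fat minus chow-fasted effect), 89 to 175 higher and 60 to 128 lower (western against chow-fasted controls) and 668 to 1403 (high-fat against chow-fasted controls).

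The median of the 30 genes stayed below 0 in chow-fasted, refed, western and Cav1 knockouts in each fit that left out 1 library, and ran from -0.058 to 0.021 on high-fat diet. The lowest count of any of the 30 genes was 25, for Pdk4, and the effect of depth was not tested. Fold changes were correlated with exon length across genes (Spearman from -0.291 in Cav1 to 0.269 in refed knockouts, and 0.332 for the refed minus chow-fasted effect).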

Other observations

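The subunit genes Hadha and Hadhb, which lie head to head on opposite strands, differed in their ratio between experiments. Per kilobase of exon, the median ratio of Hadha to Hadhb was 2.15 in chow-fasted knockouts and 2.05 in their controls, 2.2 and 2.08 on western diet, and 2.13 and 2.05 on high-fat diet. In the other tables it was 3.2 in refed knockouts, 3.17 in refed controls, 3.3 in Cav1 knockouts and 3.6 in wild types. The lowest ratio of any liver in the refed and Cav1 experiments, 2.84, lay above the highest in the chow-fasted and diet experiments, 2.52. Animals, table and feeding state differ together between these experiments and cannot be told apart.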
